A study of Mus musculus with 4 samples.

Results

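The constitutive proteasome subunits are the genes whose symbols run Psma, Psmb, Psmc or Psmd plus a number, without the 3 immunoproteasome subunits Psmb8, Psmb9 and Psmb10. A gene was a member if a probe of the array carried a RefSeq accession of it, and its measured level took no part in the choice. This gave 36 of the 21367 genes named on the array, through 44 probes. Of the 36, 34 were well above background on all 4 arrays. The other members, Psma8, an alpha subunit of the testis, and Psmb11, a beta subunit of the thymus, were above background on none.

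Cultured mouse aortic vascular smooth muscle cells of strain C57BL/6J were compared between wild type (WT) and LAMP-2AKO (L2AKO), which lacks LAMP-2A, the lysosomal receptor of chaperone-mediated autophagy. Cells were isolated from 5 aortas, used at passages 12 to 16 and kept for 24 h in DMEM with 5% LPDS, with or without LDL (150 µg/ml of LDL-cholesterol) plus bovine lipoprotein lipase at 0.1 U/ml. The sources used here do not say whether cells without LDL received lipase, how many cultures made up a pool, or how old the mice were. The 4 groups, WT control, WT LDL, L2AKO control and L2AKO LDL, had 1 array each, hybridised with RNA pooled in triplicate. No spread between replicates can therefore be measured, no p-value is given, and genotype and culture cannot be told apart.

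Proteins marked with ubiquitin chains are degraded by the 26S proteasome. Its 20S core is a barrel of outer alpha rings, which gate the entrance, and inner beta rings, in which 3 subunits carry the protease sites. The 19S cap binds ubiquitin, removes the chain and feeds the unfolded protein into the core with a ring of ATPases. When proteasome activity falls short, the transcription factor NRF1 (Nfe2l1) is known to raise subunit genes together through antioxidant response elements. Chaperone-mediated autophagy is a separate route, by which single proteins enter the lysosome.

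The members that differed most between the lines without LDL lay on chromosomes 12 and 7, and the upstream DNA of 4 of them is shown for comparison. Each window holds the 250 bases before and the 50 after a transcription start, taken from RefSeq on assembly GRCm38.p6 and written 5′ to 3′ on the gene's strand. Psma6 (chr12:55383972-55384271, plus strand) and Psmc1 (chr12:100109952-100110251, plus strand) were higher in L2AKO. Psma1 (chr7:114276067-114276366, minus strand) and Psmd13 (chr7:140882144-140882443, plus strand) were lower. Capitals mark matches on either strand to 3 motifs searched in all windows, CCAAT (the NF-Y box), GGAAGTG (an ETS site) and TGACNNNGC (the core of the antioxidant response element).
Psma6: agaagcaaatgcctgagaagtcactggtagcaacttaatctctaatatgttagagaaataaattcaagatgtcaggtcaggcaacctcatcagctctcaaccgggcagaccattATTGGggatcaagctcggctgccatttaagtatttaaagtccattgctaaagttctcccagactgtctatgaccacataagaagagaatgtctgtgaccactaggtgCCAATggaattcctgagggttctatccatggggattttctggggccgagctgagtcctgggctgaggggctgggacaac
Psmc1: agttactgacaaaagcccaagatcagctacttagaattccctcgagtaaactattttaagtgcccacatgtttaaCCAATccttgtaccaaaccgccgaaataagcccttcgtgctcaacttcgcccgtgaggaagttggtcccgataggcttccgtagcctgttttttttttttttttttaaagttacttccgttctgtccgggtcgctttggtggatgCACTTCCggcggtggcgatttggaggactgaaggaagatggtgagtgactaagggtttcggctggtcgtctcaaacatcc
Psma1: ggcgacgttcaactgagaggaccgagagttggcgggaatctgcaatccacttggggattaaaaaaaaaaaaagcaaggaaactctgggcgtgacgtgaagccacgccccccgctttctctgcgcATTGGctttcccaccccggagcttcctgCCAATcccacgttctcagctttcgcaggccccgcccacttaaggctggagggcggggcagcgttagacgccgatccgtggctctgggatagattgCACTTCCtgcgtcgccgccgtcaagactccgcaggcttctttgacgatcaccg
Psmd13: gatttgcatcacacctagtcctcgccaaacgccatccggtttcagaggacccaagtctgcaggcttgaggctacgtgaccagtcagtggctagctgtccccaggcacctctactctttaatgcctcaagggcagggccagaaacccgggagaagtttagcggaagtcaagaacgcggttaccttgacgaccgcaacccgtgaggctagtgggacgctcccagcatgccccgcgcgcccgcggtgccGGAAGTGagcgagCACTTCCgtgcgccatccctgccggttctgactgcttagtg
A second window listed for Psma6 (chr12:55398575-55398874, plus strand) held none of the motifs. In the 4 printed windows CCAAT occurred in Psma6, Psmc1 and Psma1, while GGAAGTG occurred in Psmc1, Psma1 and Psmd13. No motif was held by both higher genes and by neither lower gene. TGACNNNGC is not among the letters of these 4 windows.

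Windows were matched for 29 of the 36 members. The windows of Psma8, Psmb1, Psmb2, Psmb7, Psmc3, Psmd3 and Psmd7 were not matched. TGACNNNGC was found in 5 members (Psmb5, Psmb6, Psmc6, Psmd9 and Psmd12), or 17.2%, beside 14.0% of 27025 genes with a window of this length. CCAAT was found in 12 members, or 41.4%, beside 41.1% of all genes. GGAAGTG was found in 7 members (Psma1, Psma2, Psmb4, Psmc1, Psmc2, Psmd9 and Psmd13), or 24.1%, beside 12.5% of all genes. None of the motifs is contained in another, and a match is a description of the sequence only.

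A level below is log2 of the processed spot intensity minus the 75th percentile of its array, so 0 is the 75th percentile and 1 unit is a 2-fold step. A difference is one level minus another of the same probe. Levels of different genes are not compared, because probes differ in brightness. A difference of 1.5-fold, 0.585 in log2 units, is used as a mark of size and is not a test. As a technical yardstick, the spots of probes printed repeatedly on an array had a median SD (log2) no higher than 0.0537. This makes 0.15 the size of 2 SD for a difference of 2 spots. All 44 member probes were printed once.

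The 75th percentile of the processed signal ranged from 318.8 to 433.8 over the arrays, 47.2% to 52.0% of probes were well above background and 0 were saturated. The L2AKO LDL array was on another slide than the other 3, so in comparisons that use it slide and group cannot be told apart. On it, 7 of 8 spike-in RNAs read above or below all 3 other arrays. The 8 lay between -1.165 and 0.63 (log2) from the mean of those 3 arrays, which spanned at most 0.505 for any spike-in. A Lamp2 probe read 3.68, 3.74, 2.30 and 2.41 in the order WT control, WT LDL, L2AKO control and L2AKO LDL, and another read 6.29, 6.38, 6.33 and 6.09. The parts of the gene these probes read were not analysed here. Of the smooth muscle markers, 4 of 7 were above background on all arrays while Myh11, Des and Lmod1 were on none. All 6 fibroblast markers were above background on all arrays.

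Levels of the members are plotted in the order of their places in the proteasome.

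**Figure D1:**
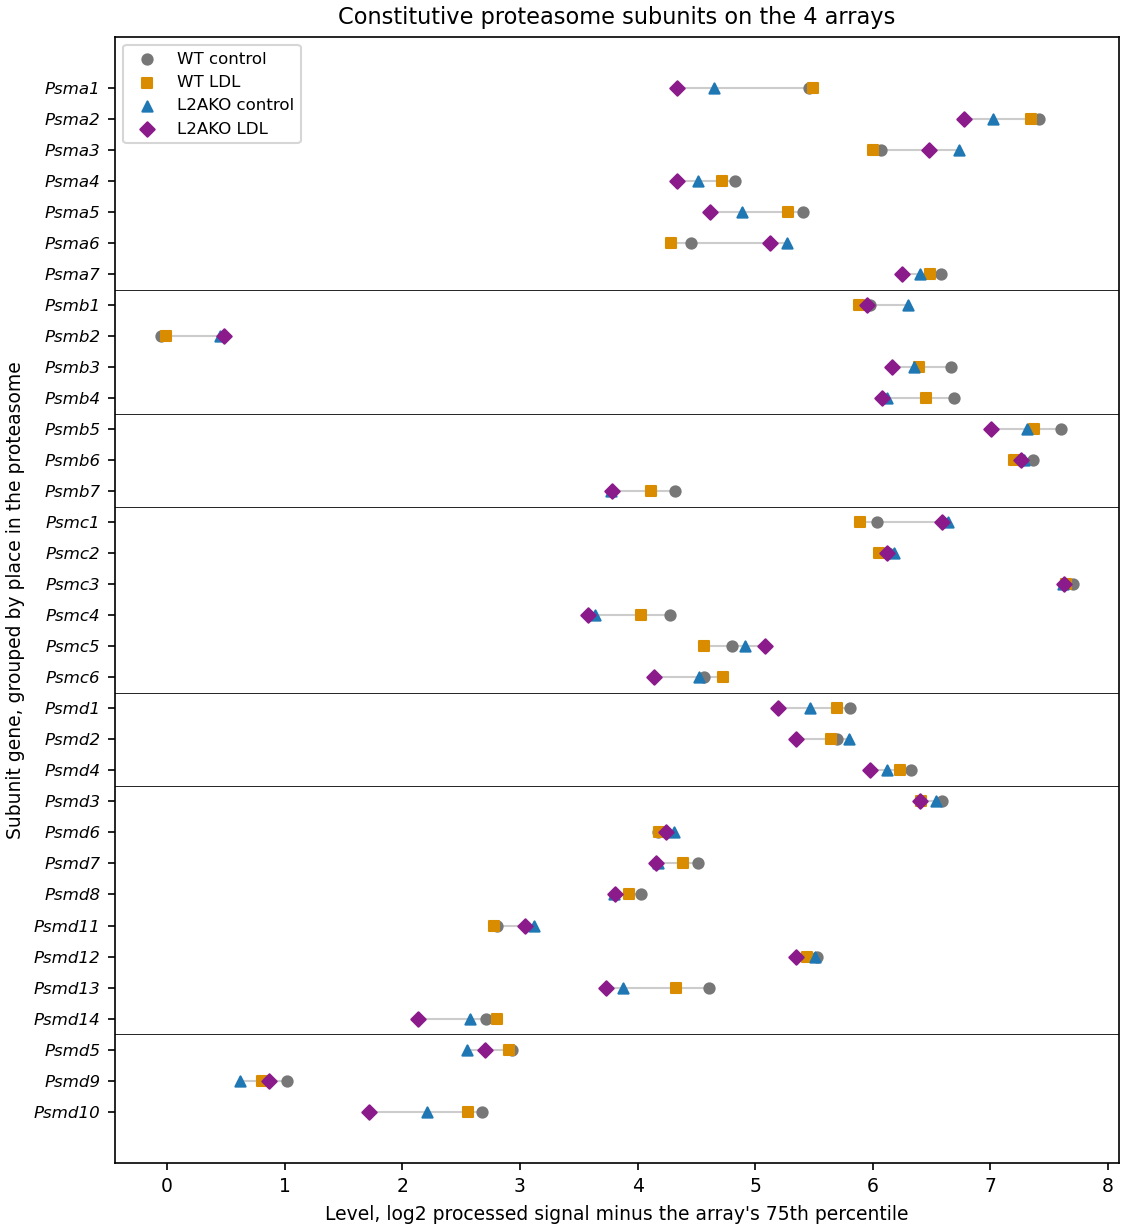
Level of each of the 34 measured constitutive subunits (rows, grouped by horizontal lines into alpha ring, structural beta, catalytic beta, 19S ATPases, other base subunits, lid and assembly chaperones) on the 4 arrays (symbols). The horizontal axis is log2 processed signal minus the array's 75th percentile, and each symbol is 1 array with no error bar. Psma6, Psma3 and Psmc1 sit to the right on both L2AKO arrays, and Psma1, Psmd13 and Psmc4 sit to the left.

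The comparison of the lines without LDL asked how subunit RNA differs where LAMP-2A is missing. Of the 34 subunits, 3 passed 1.5-fold upward in L2AKO and 3 passed it downward. Higher were Psma6, Psma3 and Psmc1, which are the only measured members on chromosome 12. Lower were Psma1, Psmd13 and Psmc4, all on chromosome 7, whose remaining member Psmd8 differed by -0.24. Psmc4 was under the mark in 3 of 9 alternative settings, down to -0.55. Of all 12594 measured genes, 15.2% passed the mark upward and 16.6% downward, so the members' shares were not above those of the array. In bulk RNA, fewer cells of a type and less RNA per cell cannot be told apart.

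Psma6, an alpha ring subunit, read 4.46, 4.28, 5.27 and 5.13 (WT control, WT LDL, L2AKO control, L2AKO LDL). Both L2AKO arrays were above both WT arrays, by 0.82 without LDL (1.76-fold) and by 0.84 with LDL (1.80-fold). Psma3, also of the alpha ring, read 6.07, 6.00, 6.73 and 6.48 in the same order. Its difference was 0.66 without LDL and 0.48 with LDL, so it passed 1.5-fold only without LDL. Psmc1, an ATPase of the 19S base, read 6.04, 5.89, 6.64 and 6.59. Its differences were 0.60 and 0.70, and a second Psmc1 probe, at 4.18, 4.08, 5.13 and 5.37, gave 0.95 and 1.29. The gap between the Psmc1 probes with LDL was the largest between probes of any member, 0.58, just under 1.5-fold.

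Psma1, an alpha ring subunit, had the lowest difference of all 34 in both comparisons of the lines. It read 5.46, 5.49, 4.65 and 4.34, which is -0.80 without LDL (1.75-fold lower) and -1.15 with LDL (2.22-fold lower). Psmd13, a lid subunit, read 4.61, 4.32, 3.87 and 3.73, with differences of -0.74 and -0.60. Psmc4, a base ATPase, read 4.28, 4.03, 3.64 and 3.58, with differences of -0.64 and -0.45. For each of these 3 genes both L2AKO arrays lay below both WT arrays.

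The direction held for the rest of these chromosomes. That comparison was made after the values were seen, and the chromosome of each gene was taken from the GRCm38.p6 gene table. On chromosome 12 the other 413 measured genes had a median difference of 0.90 without LDL, and 70.0% of them were at least 1.5-fold higher in L2AKO. With LDL the median of 429 genes was 0.80 and 65.0% were at least 1.5-fold higher. On chromosome 7 the other 977 genes had a median of -0.32 without LDL, and 28.7% were at least 1.5-fold lower. With LDL the median of 1020 genes was -0.35 and 32.5% were at least 1.5-fold lower. All 3 chromosome 12 subunits lay below the median of their chromosome without LDL, by 0.09 for Psma6, 0.25 for Psma3 and 0.30 for Psmc1.

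**Figure D2:**
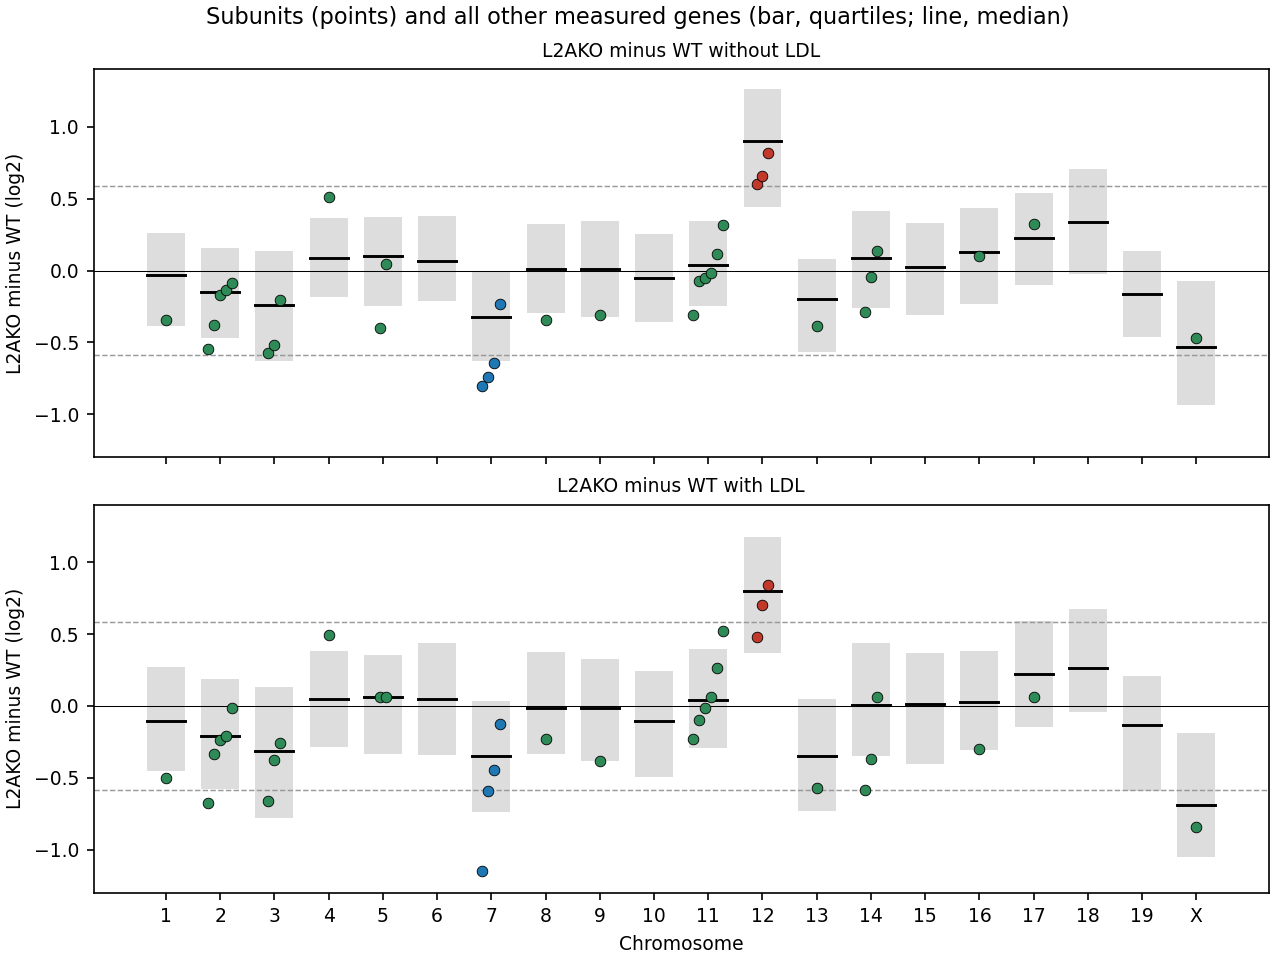
Difference between L2AKO and WT (vertical axis, log2) without LDL (top) and with LDL (bottom) for each subunit (points) by chromosome (horizontal axis). Grey bars span the quartiles and black lines the median of all other measured genes of the chromosome, and dashed lines mark 1.5-fold. The 3 red points of chromosome 12 are above 0 inside a bar that is itself above 0, and the 4 blue points of chromosome 7 are below 0.

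Over the 34 members, on 15 chromosomes, the difference followed the median of the other genes on the same chromosome. Pearson's r was 0.83 and Spearman's rho 0.79 without LDL, and 0.79 and 0.81 with LDL. Without the 7 members on chromosomes 7 and 12, r over the other 27 was 0.62 and 0.66. These are descriptions across genes of 1 pair of arrays, and genes of a chromosome are not independent replicates. Subtracting the chromosome's median lowered the SD over the members from 0.40 to 0.22 without LDL and from 0.44 to 0.27 with LDL. After it, 0 subunits were past 1.5-fold without LDL, with Psmb2 highest at 0.42 and Psmd9 lowest at -0.50. With LDL, 0 were higher and 2 were lower, Psma1 at -0.80 and Psmc6 at -0.59. The share of all genes past 1.5-fold after the subtraction, and their SD, are not given here. The members' counts and SD after it therefore have nothing to stand beside. The subtraction took the median over the members from -0.19 to -0.12 without LDL and from -0.23 to -0.11 with LDL. Below their chromosome's median, with as many other genes above as below, were 24 of 34 members without LDL and 23 with LDL.

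Differences of neighbouring genes showed the same direction near most of these subunits. Of the 20 measured genes nearest to Psma6, 10 on each side, 19 were above 0 without LDL, with a median of 0.97. Near Psma3 and Psmc1, 18 of 20 were above 0 in each case, with medians of 0.90 and 0.82. Near Psmc4, 17 of 20 were below 0, with a median of -0.43. The genes around Psma1 and Psmd13 were less one-sided, with 15 and 12 of 20 below 0 and medians of -0.27 and -0.13. Along the whole of chromosome 12 a running median over 51 genes stayed between 0.62 and 1.11, and along chromosome 7 it stayed between -0.71 and -0.03.

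**Figure D3:**
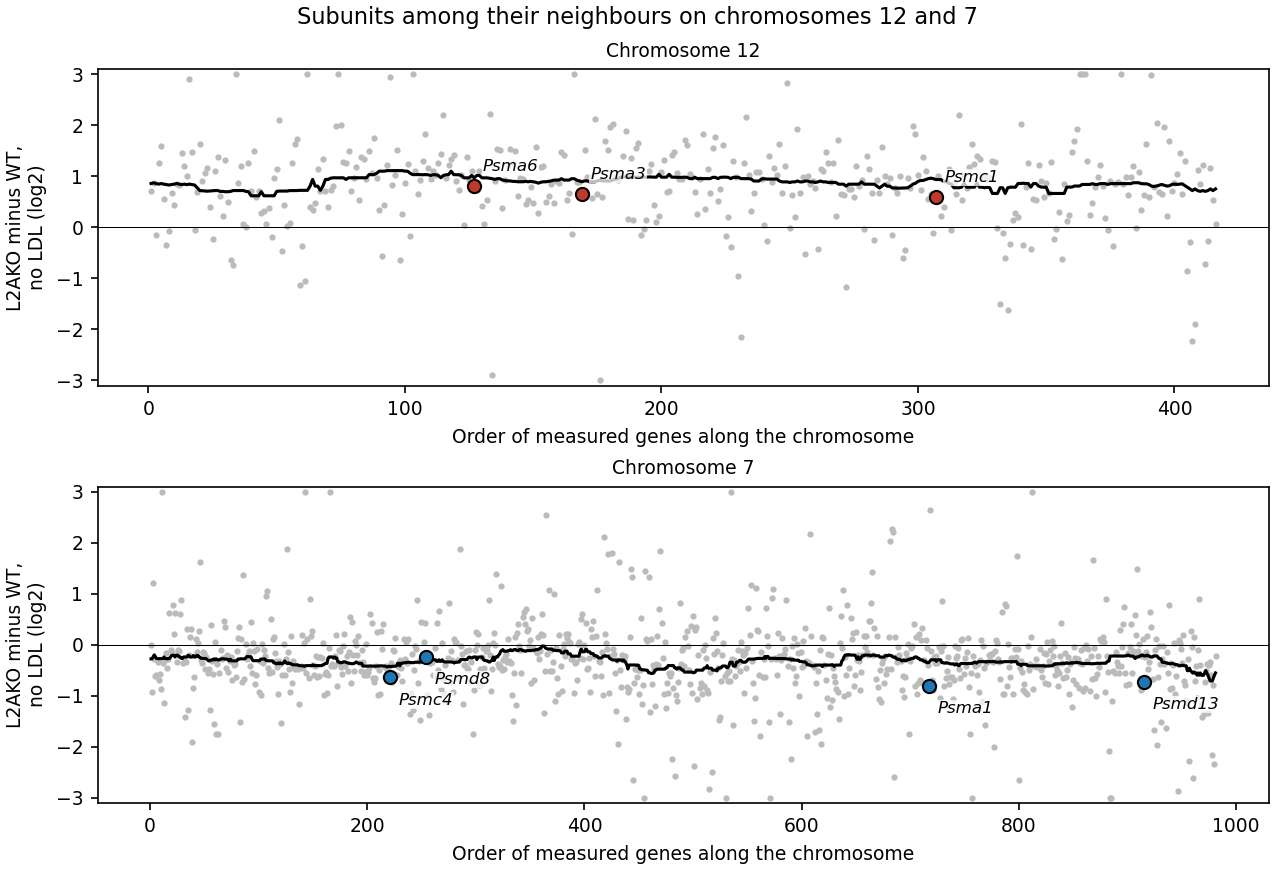
Difference between L2AKO and WT without LDL (vertical axis, log2) for each measured gene in its order along chromosome 12 (top) and chromosome 7 (bottom). Grey points are single genes, with those beyond 3 drawn at 3 and those beyond -3 at -3, coloured points are the subunits, and the black line is the running median over 51 genes. The line stays above 0 along chromosome 12 and below 0 along chromosome 7.

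Chromosome 3 carried Psma5, Psmb4 and Psmd4, and the median of its other genes was -0.24 without LDL. Psmb4, a structural beta subunit, read 6.69, 6.45, 6.12 and 6.08 and differed by -0.57 without LDL, just under 1.5-fold. Psma5, of the alpha ring, read 5.40, 5.28, 4.88 and 4.62 and differed by -0.52. For each of the 3 genes, 18 of 20 neighbours were below 0. Psmb4 and Psmd4 lie close together, so their neighbours may be partly the same genes. On chromosome X, with a median of -0.53, the assembly chaperone Psmd10, also known as gankyrin, read 2.68, 2.56, 2.21 and 1.72. Its difference was -0.47 without LDL, and a second probe gave -0.62.

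Of the chromosomes with several subunits, chromosome 11 had the median nearest to 0. Chromosome 11 had 6 members, Psmb3, Psmb6, Psmc5, Psmd3, Psmd11 and Psmd12, and a median of 0.04 over its other genes. Their differences without LDL ran from -0.31 for Psmb3 to 0.32 for Psmd11. On chromosome 5, with a median of 0.10, Psmc2 was at 0.05 and Psmd9 at -0.40. On chromosome 14, with a median of 0.09, the 3 members ran from -0.29 for Psmb5 to 0.14 for Psmd6. Psmb2 on chromosome 4, a structural beta subunit, stood outside its chromosome's quartiles. It read -0.05, -0.01, 0.46 and 0.49, a difference of 0.51 where the other genes of chromosome 4 had a median of 0.09. In all, 25 of the 34 lay inside the quartiles of their own chromosome. By definition about 25% of a chromosome's other genes lie above its quartiles and 25% below. Psmb2 alone was above them, and 8 were below them, Psma1, Psmd13 and Psmc4 on chromosome 7 and Psmb3, Psmb5, Psmb7, Psmd7 and Psmd9 elsewhere.

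By place in the complex the members did not divide in this way. The alpha ring held both the highest subunit, Psma6, and the lowest, Psma1, and its 7 members had a median difference of -0.31 without LDL. The 4 structural beta subunits had a median of 0.01 and the 6 ATPases one of 0.00, each with members on both sides of 0. The 8 lid subunits had a median of -0.09, and the 3 other base subunits, the scaffolds Psmd1 and Psmd2 and the ubiquitin receptor Psmd4, one of -0.20. The 3 chaperones that assemble the base, Psmd5, Psmd9 and Psmd10, lay between -0.47 and -0.38.

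The catalytic subunits were all below 0 without LDL. Psmb5, the chymotrypsin-like protease site, read 7.60, 7.37, 7.31 and 7.01, a difference of -0.29. Psmb6, the caspase-like site, read 7.36, 7.20, 7.28 and 7.26, a difference of -0.07, within 2 SD of repeated spots. Psmb7, the trypsin-like site, read 4.32, 4.12, 3.78 and 3.78, a difference of -0.55. With LDL the differences were -0.37, 0.06 and -0.34. A second Psmb5 probe gave -0.22 without LDL and -0.0025 with LDL, so the lower Psmb5 with LDL rests on 1 probe. None reached 1.5-fold.

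Over all 34 subunits the median difference without LDL was -0.19, beside -0.01 for all measured genes. When arrays were scaled by the median of their probes, it was -0.10, beside 0.08 for all genes. Below 0 were 24 of 34 subunits, beside 51.1% of all genes. The members' spread was narrower than that of the array, with an SD of 0.40 against 0.88.

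Genes of dividing cells differed far more between the lines than the subunits did. Their summed level was 6.20, 6.05, 3.01 and 3.22 on the 4 arrays, and all 7 measured genes of the list of 8 were past 1.5-fold downward in L2AKO without LDL, with a median of -3.42. Mesothelial and epithelial markers summed to 4.89, 4.61, 2.53 and 2.42, with Epcam and Krt8 above background on only 1 array each. Msln made up most of that sum, at 4.74, 4.48, 2.43 and 2.34. Macrophage markers summed to 1.32, 1.22, 2.49 and 2.14, with Adgre1 and Ptprc above background on no array. Smooth muscle markers summed to 7.64, 7.46, 7.14 and 7.09, but the 4 measured ones were split, with Acta2 (-0.75) and Smtn (-0.995) lower and Tagln (1.27) and Cnn1 (1.11) higher in L2AKO without LDL. Fibroblast markers summed to 8.68, 8.44, 8.57 and 8.43 and were split too, with Col3a1 (6.15), Serpinf1 (4.28) and Pi16 (4.14) higher and Dcn (-1.69), Lum (-1.03) and Pdgfra (-0.61) lower. Endothelial markers summed to 2.47, 2.16, 2.10 and 2.41, with Cdh5 and Tek above background on none. The part of these genes in the subunit differences was not tested.

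With LDL, 2 subunits passed 1.5-fold upward in L2AKO and 6 passed it downward, beside 16.9% and 20.5% of 12936 genes. Higher were Psma6 and Psmc1. Lower were Psma1, Psmd10 at -0.84, Psmd14 at -0.68, Psma5 at -0.66, Psmd13 at -0.60 and Psmc6 at -0.59, the last just past the mark. Of these, Psmd13 and Psmc6 were past it in 5 of 10 settings, Psmd14 in 7 and Psma5 in 9, and Psma1 and Psmd10 in all 10. Psmd14, the lid enzyme that cuts ubiquitin chains from the substrate, read 2.72, 2.81, 2.58 and 2.13. Psmc6, an ATPase, read 4.57, 4.73, 4.52 and 4.14. For these 2 genes the L2AKO LDL array alone stood low, and both are on chromosomes, 2 and 14, whose other genes had medians of -0.21 and 0.01.

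The median over the subunits with LDL was -0.23, beside -0.05 for all genes, and 23 of 34 were below 0, beside 53.4% of all genes. When each array was scaled by the median of its probes instead of the 75th percentile, it was -0.03, beside 0.15 for all genes. That scaling moved the median of all genes by 0.20, and with it 5 subunits passed 1.5-fold upward and 2 downward. The shares of all genes past the mark under that scaling are not given here.

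The difference between the lines was similar in both media. Without LDL and with LDL, which share no array, it had the same sign for 31 of 34 subunits, with r = 0.85 and rho = 0.77. All 12492 genes measured in both gave r = 0.92. The LDL responses of the lines also share no array. Their signs were the same for 24 of 34 subunits, with r = -0.33 and rho = -0.26, beside r = 0.34 over all genes. These responses were small, with an SD over the subunits of 0.10 in WT and 0.18 in L2AKO. Beyond 2 SD of repeated spots were 12 of 34 in WT and 17 of 34 in L2AKO. The share of all genes beyond it is not given here. Quartiles over all genes were -0.16 and 0.08 in WT and -0.25 and 0.10 in L2AKO. Repeated spots hold no spread between arrays, so these values cannot show whether the responses of the lines differ.

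**Figure D4:**
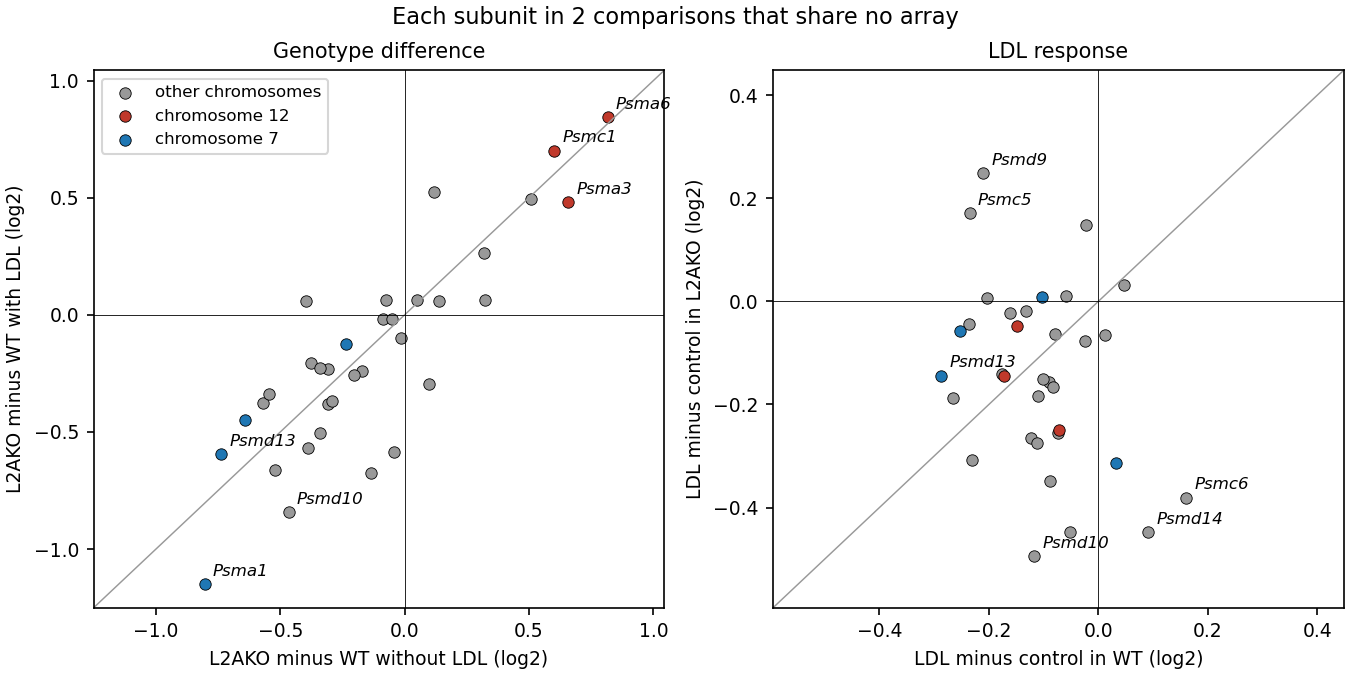
Difference between L2AKO and WT with LDL against the same without LDL (left), and LDL response in L2AKO against that in WT (right), in log2 units, with 1 point for each of 34 subunits. The grey line marks equal values, red points are on chromosome 12 and blue points on chromosome 7. Points on the left follow the line, with the chromosome 12 genes at upper right, and points on the right do not.

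LDL minus control in WT cells asked what lipoprotein loading does to subunit RNA. No subunit reached 1.5-fold, while 1.25% of 12978 genes passed it upward and 2.46% downward. The subunits lay in a narrow band slightly below 0, with a median of -0.11 and an SD of 0.10, beside -0.05 and 0.30 for all genes. Below 0 were 29 of 34, beside 60.7% of all genes.

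The lowest were Psmd13 at -0.29, the structural beta subunit Psmb3 at -0.27 and Psmc4 at -0.25. Psmb3 read 6.66 without and 6.39 with LDL. The highest were Psmc6 at 0.16, Psmd14 at 0.09 and Psmb2 at 0.05. The 3 catalytic subunits Psmb5, Psmb6 and Psmb7 were at -0.23, -0.16 and -0.20. Quantile normalisation brought the median over the subunits to -0.01 and that over all genes to 0.004. The shift below 0 therefore depends on how the arrays are scaled.

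The same comparison in L2AKO cells gave a wider band. No subunit reached 1.5-fold, while 3.34% of 13008 genes passed it upward and 4.55% downward. The median over the subunits was -0.14 and the SD 0.18, beside -0.08 and 0.37 for all genes, and 27 of 34 were below 0, beside 62.2% of all genes. All 7 alpha ring subunits were below 0, between -0.31 and -0.14, with a median of -0.25. The lowest subunits were Psmd10 at -0.49, Psmd14 at -0.45 and Psmd2, a base scaffold subunit, also at -0.45. The highest were Psmd9 at 0.25, Psmc5 at 0.17 and Psmd5 at 0.15. Scaled by the median of the probes, the median over the subunits was -0.04, beside 0.03 for all genes.

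The difference of the LDL responses, L2AKO minus WT, had a median of -0.03 over the subunits and over all genes. Both medians became 0.08 when arrays were scaled by the median of their probes. No subunit reached 1.5-fold, beside 4.77% of 12492 genes higher and 3.99% lower, and 18 of 34 were below 0, beside 54.0%. The lowest were Psmc6 at -0.54, Psmd14 at -0.54 and Psmd2 at -0.40. The highest were Psmd9 at 0.46, Psmc5 at 0.41 and Psmb7 at 0.21. Psmc5, an ATPase, read 4.80, 4.56, 4.92 and 5.09, and Psmd9 read 1.02, 0.81, 0.62 and 0.87. The LDL response was -0.24 in WT and 0.17 in L2AKO for Psmc5, -0.21 and 0.25 for Psmd9, and 0.16 and -0.38 for Psmc6. All 6 values were under 1.5-fold, and no spread between arrays is at hand to judge the opposite signs. A second Psmd9 probe gave -0.15 in WT and 0.30 in L2AKO.

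**Figure D5:**
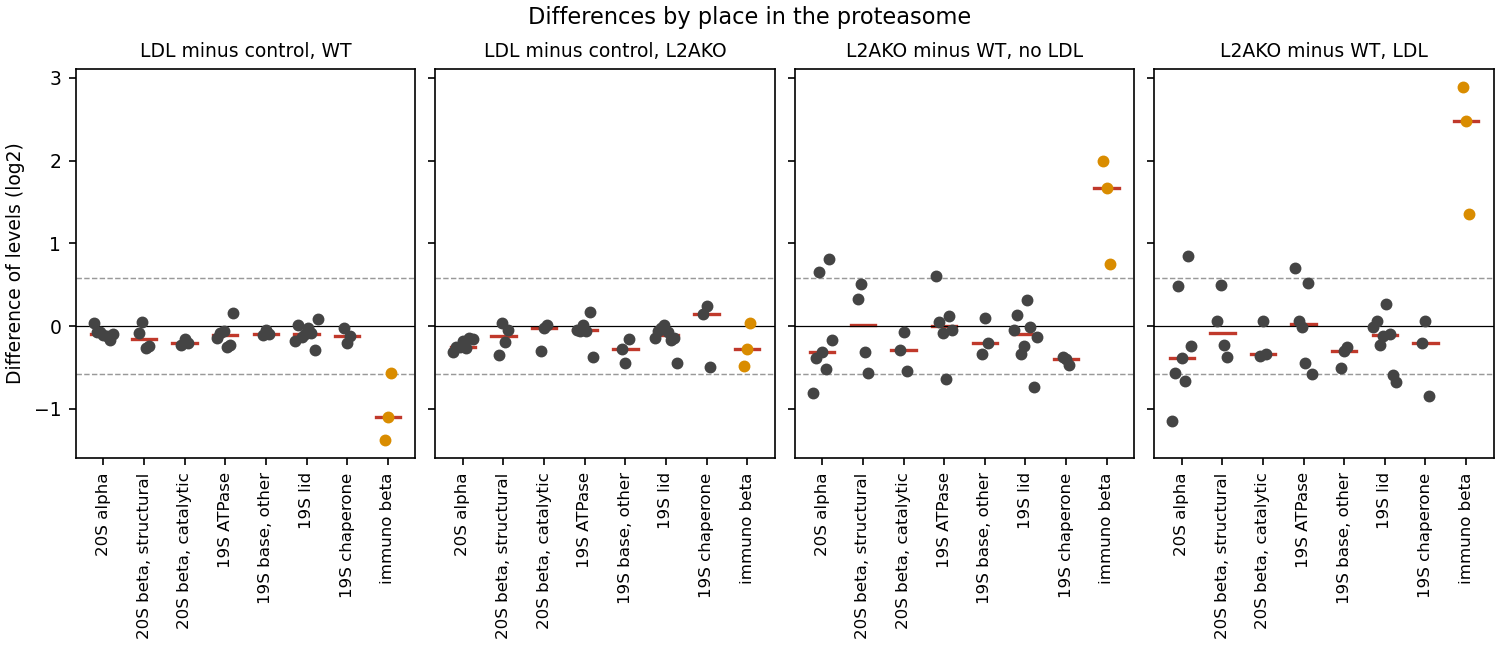
Differences (vertical axis, log2) of the 34 constitutive subunits (dark points) by place in the proteasome and of the 3 immunoproteasome subunits (orange) in 4 comparisons. Red lines are medians and dashed lines mark 1.5-fold. In the LDL comparisons every dark point is inside the dashed lines, and the orange points lie beyond all dark points in both comparisons of the lines except Psmb10 without LDL, at 0.75.

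The immunoproteasome subunits replace the catalytic subunits under interferon and were not members. Psmb8 read -0.87, -2.25, 1.13 and 0.64, Psmb9 read 0.29, -0.81, 1.95 and 1.67, and Psmb10 read 5.13, 4.56, 5.87 and 5.91. Without LDL they were 2.00, 1.67 and 0.75 higher in L2AKO. The constitutive subunits they replace, Psmb5, Psmb6 and Psmb7, were at -0.29, -0.07 and -0.55. With LDL in WT the immunoproteasome genes were at -1.38, -1.10 and -0.57.

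Other genes of the pathway were counted from a list of 43, of which 41 were measured in every comparison, with Psme2 and Paaf1 not matched to a probe. Of the 38 that were not immunoproteasome subunits, 3 passed 1.5-fold upward and 3 downward in L2AKO without LDL, beside 15.2% and 16.6% of all genes. Among the higher were Psmg2, a 20S assembly chaperone, at 0.61 and the ubiquitin-activating enzyme Uba6 at 0.71. Lower were the proteasome-bound deubiquitinase Uchl5 at -0.63, the shuttle factor Ubqln2 at -0.996 and the activating enzyme Uba1 at -0.64. Ubqln2 and Uba1 are on chromosome X and Psmg2 is on chromosome 18, with medians of -0.53 and 0.34 without LDL. Uchl5 is on chromosome 1 and Uba6 on chromosome 5, with medians of -0.03 and 0.10. With LDL the counts were 3 higher and 7 lower, beside 16.9% and 20.5% of all genes, with Ubqln4 lowest at -1.23.

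In the LDL comparisons, Ubqln4 alone of these 38 was past 1.5-fold in WT, at 0.68, beside 1.25% of all genes upward. Nfe2l2, which encodes NRF2, at -0.70 and Ngly1, the deglycosylase that activates NRF1, at -0.67 were past it in L2AKO, beside 4.55% of all genes downward. Nfe2l1, which encodes NRF1, read 0.24, 0.06, 0.49 and 0.24 and stayed inside 1.5-fold in every comparison. The lists for these genes describe the pathway and were not tested.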

How the data were processed

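Messenger RNA was measured on 4 Agilent mouse arrays with 1 colour (Cy3). The deposited scanner files hold spot intensity on a linear scale, which per the file headers had its background subtracted by Feature Extraction (version 10.7.3.1). A value table that the authors deposited holds a linear signal with column medians of 57.6, 57.6, 57.5 and 57.4. RMA and oligo appear in the submitters' processing notes without versions, and how that table was scaled stays unknown.

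Control and outlier spots were left out, the log2 values of a probe's spots were averaged, and each array's 75th percentile over 55679 probes was subtracted. RefSeq accessions were matched to the GRCm38.p6 gene table for 28330 probes, 27349 stayed unnamed, and the brightest probe stood for a gene. The files name another build, mm9, so only chromosome names and order come from the table. A gene entered a comparison if well above background on every array compared.

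With 1 array per group no test was run, and the number of arrays limits the precision. Members and lists were chosen with earlier results of these data known. The rule for naming took the catalytic subunits, the 3 highest and 3 lowest members of each comparison, all past 1.5-fold and all below background. Others, and every subunit named for its chromosome, were named after their values were seen, and 1 gene of the pathway list is not reported here by name. The 9 alternative settings changed scaling, background correction (normexp, offset 50), dim-probe filter, probe choice or the source of the values, and 2 more were added after the values were seen. Steps were tested on simulated data. Versions were Python 3.11.15, pandas 2.3.3, numpy 2.4.6, matplotlib 3.10.9, limma 3.58.1 and R 4.3.3.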

Additional observations from a re-analysis of the deposited data

How the results depend on the processing

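No paired analysis was possible because each group has 1 array, and for the same reason no replicate could be left out. Scaled by the median of all probes, the median over the subunits was -0.0998 for L2AKO minus WT without LDL, -0.0318 for it with LDL, -0.0377 for LDL in L2AKO and 0.0753 for the difference of responses. The counts of L2AKO minus WT with LDL then became 5 higher and 2 lower, with no share of all genes given for that scaling. This scaling moved the median of all genes by 0.11, 0.20 and 0.11 in the comparisons with L2AKO LDL. For L2AKO minus WT without LDL it moved that median by 0.09. The median for LDL in L2AKO was -0.0486 with the 75th percentile taken over probes above background and -0.0582 after normexp and quantile. For LDL in WT it was -0.0111 after quantile normalisation, -0.0023 after normexp and quantile, and -0.0125 in the authors' deposited values. With no filter on dim probes, 1 subunit, Psmb11, was lower for LDL in L2AKO and for the difference of responses, though it was below background on every array.

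Of the alternatives added after the values were seen, subtracting the chromosome's median left 0 higher and 0 lower without LDL and 0 higher and 2 lower with LDL between the lines. The share of all genes past 1.5-fold after it is not given here. The subtraction brought the median to -0.1124 for L2AKO minus WT with LDL and -0.0612 for LDL in L2AKO. It turned the sign of 10 subunits without LDL and of 8 with LDL. Among those past 1.5-fold these were Psmc1 (-0.3015), Psma3 (-0.2454) and Psma6 (-0.0855) without LDL and Psmc1 (-0.0992) with LDL, and Psma3 with LDL went from 0.48 to -0.32. Leaving out members of chromosomes 7 and 12 left 0 higher and 0 lower without LDL and 0 higher and 4 lower with LDL. The counts of 0 were fixed in advance and give no support. Every subunit past 1.5-fold without LDL, and every higher one with LDL, is on these chromosomes. In the 9 settings that left position in the genome aside, Psma1, Psma3, Psma6, Psmc1 and Psmd13 stayed past 1.5-fold without LDL, while Psmc4 ran from -0.64 to -0.55 and missed the mark under median scaling, under normexp with quantile and in the authors' deposited values. With LDL, Psma1, Psmd10, Psma6 and Psmc1 stayed past it, and Psmd13, Psmc6, Psmd14 and Psma5 did not in every setting. The other 143 medians and counts stayed within 0.08, or 0.11 for the difference of responses (1 SD from repeated spots), or 1.5 times the count.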
